A study of Mus musculus with 10 samples.

Results

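Axon guidance ligands and receptors were examined in 10 RNA libraries of fluorescent cells that had been sorted out of ischemic mouse brain hemispheres. The members were the genes of the deposited count table whose symbol names a semaphorin of classes 3 to 7, a plexin, an ephrin, an Eph receptor, Slit1 to Slit3, a Robo or Unc5 receptor, Ntn1 to Ntn5, or the neuropilins Nrp1 and Nrp2, without pseudogene, opposite-strand and Rik symbols. This rule found 67 of the 28585 genes in the table. Of these, 65 belong to the named families, among them 20 semaphorins, 9 plexins, 12 Eph receptors and 8 ephrins. The other 2, Unc50 and Unc5cl, matched by the start of their symbol, and neither is a known netrin receptor. A filter on low counts kept 43 members for testing and removed 24. Epha6, Epha8 and Ntn3 were not analysed here.

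Semaphorins are secreted or membrane-bound ligands that signal through plexins, and most of the secreted class 3 members also need a neuropilin. Ephrins are membrane-bound ligands of the Eph receptor tyrosine kinases and signal between touching cells, Slits bind Robo receptors, and netrins bind Dcc, neogenin and Unc5 receptors. These proteins steer growing axons, and many of them also act on the movement and contacts of macrophages, dendritic cells and lymphocytes.

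The microglia group (replicates 39, 40 and 41) held CX3CR1+ cells with a tdTomato reporter from CX3CR1CreERT2:Rosa26-tdT mice. Microglia are the resident phagocytes of the brain, and the Cx3cr1 promoter that drives this Cre is also active in other myeloid cells. The parabiotic group (replicates 3, 11 and 15) held CD11c-eYFP+ cells from C57BL/6 mice joined in circulation to Tg(Itgax-Venus)1Mnz mice, so that only cells that came from the blood of the partner carried the reporter. The transgenic group (replicates 23, 24, 26 and 27) held CD11c-eYFP+ cells from Tg(Itgax-Venus)1Mnz mice, in which any cell that uses the promoter of Itgax, the CD11c gene, carries it. All mice were female and all hemispheres ischemic, with no uninjured group. The mice of the microglia and transgenic groups had an age of 13 to 14 weeks and those of the parabiotic group of 15 to 16 weeks, so that age and source cannot be told apart for the parabiotic cells. The labels of parabiotic replicate 15 name no cell type and give the transgenic genotype with the age of the parabiotic group, and the library was placed by its title. The labels do not say whether each library is 1 animal, so p-values measure the spread between these libraries, which may be technical.

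Libraries held 31534625 to 41730688 counts, and the members together took 0.115% to 0.28% of them. Levels are in CPM, the share of a gene in the counts of its library after TMM scaling, and CPM per kb of exon where levels of different genes are compared. The microglial and dendritic cell markers went with the labels. The 10 microglial markers summed to 20920 to 23290 CPM in microglia, 2063 to 3606 CPM in parabiotic cells and 6340 to 18310 CPM in transgenic cells. The sums of 10 markers of conventional dendritic cells ran the other way, at 181 to 274 CPM, 19600 to 24710 CPM and 3108 to 12490 CPM. Monocyte markers summed to 96.5 to 171, 1354 to 1606 and 466 to 1629 CPM, and astrocyte markers, mostly Slc1a3, to 114 to 193, 18.5 to 21.9 and 31.4 to 67.5 CPM in the same order. Other lists did not follow the labels. Neutrophil markers summed to 411 to 491, 187 to 956.5 and 120 to 322 CPM in that order, highest in parabiotic replicate 11. Markers of B and plasma cells summed to 212 to 274, 96.7 to 168 and 15.4 to 199 CPM. Those of oligodendrocytes and their precursors summed to 149 to 277, 134 to 154 and 155 to 240 CPM. A sum follows its most abundant genes, and single markers could differ from it. In the test below of parabiotic cells against microglia, 4 of 7 B and plasma cell markers tested were higher and 0 lower. Their median log2 fold change was 2.78. Of the 4 neutrophil markers tested, 3 were higher and 1 lower (median 7.82). Over all genes, 17.4% were higher and 17.9% lower. Within the transgenic group, replicate 26 had the highest microglial sum (18310 CPM) and the lowest dendritic cell sum (3108 CPM). Transgenic replicates 26 and 27 also carry library numbers apart from the run of the other 8. In the alternative fit with a term for the library numbers, that term marks these replicates alone. The transgenic mean then rests on replicates 23 and 24. In such sorted bulk RNA, fewer cells of a type and less RNA per cell cannot be told apart. The part that the mix of cell types has in the differences given here was not tested.

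In parabiotic CD11c cells against microglia, 9 tested members were higher and 13 were lower, while 21 did not pass the test (edgeR quasi-likelihood test, Benjamini-Hochberg adjusted p under 0.05). The largest gains were in the semaphorins Sema4f and Sema7a and in the receptors Ephb2, Plxnd1 and Plxna1. The largest losses were in Sema4g, Ephb3, Unc5cl, Plxna4 and Efnb2. Over all 15151 genes tested, 35.3% were called in this comparison, 17.4% higher and 17.9% lower. The called share of tested members was 51.2%, and their median log2 fold change was -0.14 against -0.02 over all genes tested. Without overlap between libraries, 11 members lay above and 17 below microglia, against 60.3% of all genes (30.5% above and 29.7% below). The filter itself keeps low genes that are high in 1 group, so these shares are a description.

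**Figure D1:**
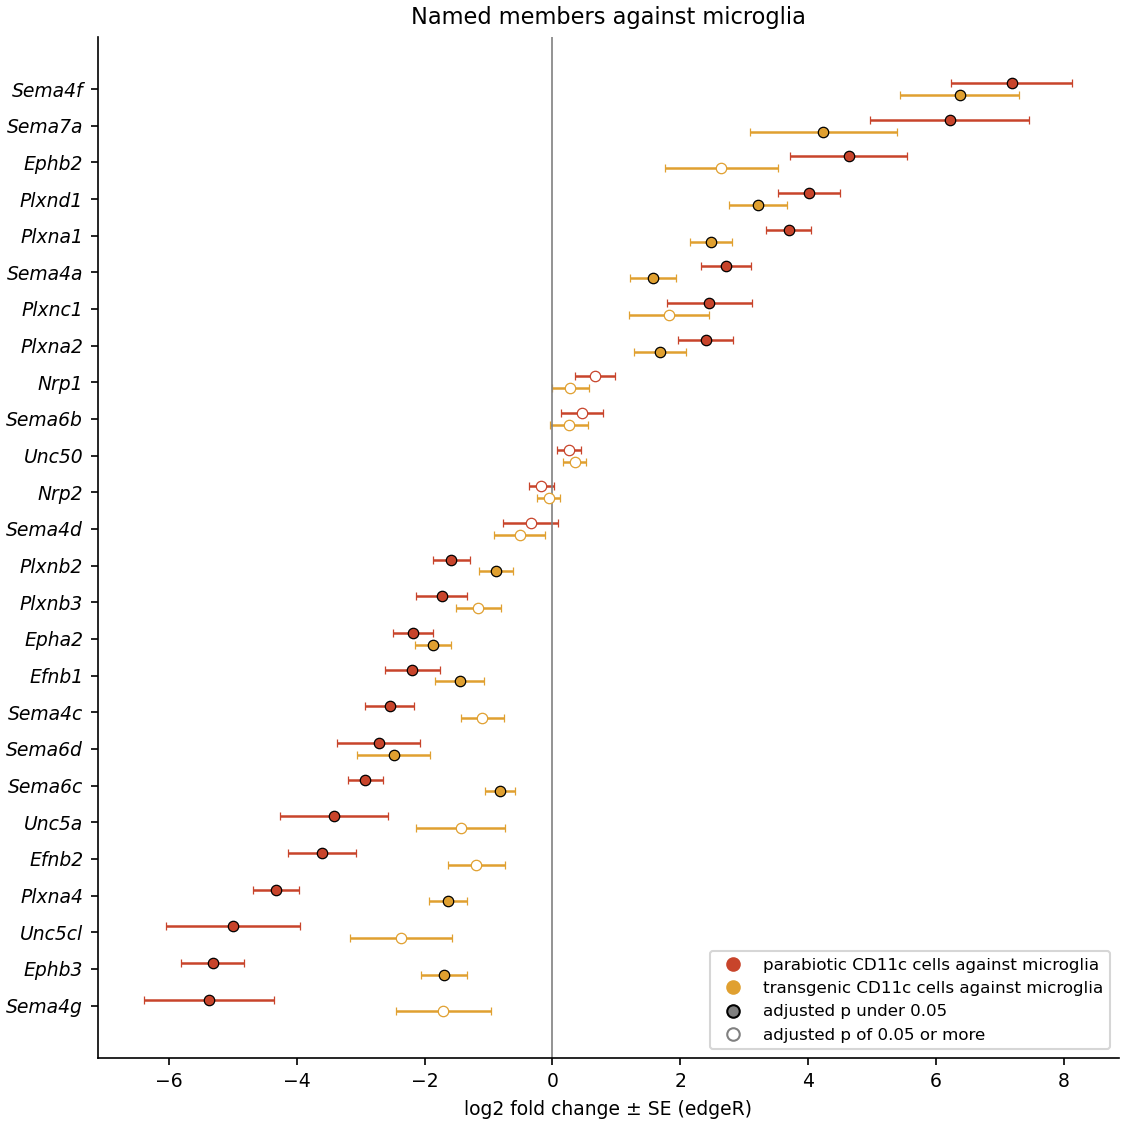
Log2 fold change (x axis) of 26 tested members, for parabiotic cells against microglia (red) and transgenic cells against microglia (amber). These had a mean of at least 5 CPM in a group, or of at least 1 CPM where called. Bars are 1 standard error and filled points have an adjusted p under 0.05. Sema4f and Sema7a lie farthest to the right, and Sema4g and Ephb3 farthest to the left in red.

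In transgenic CD11c cells against the same microglia libraries, 7 members were higher, 7 lower and 29 were not called. The higher ones were Plxna1, Plxna2, Plxnd1, Sema4a, Sema4f, Sema7a and Ntn4, and the lower ones Plxna4, Plxnb2, Sema6c, Sema6d, Epha2, Ephb3 and Efnb1. Over all genes, 13.7% were called (8.88% higher and 4.79% lower), against 32.6% of the tested members, whose median log2 fold change was -0.37 against 0.02 over all genes. Without overlap, 5 members lay above and 15 below microglia, against 30.3% of all genes (15.6% above and 14.7% below). Left without 1 library, the counts ran from 3 to 8 higher and from 2 to 8 lower, lowest without microglia replicate 39 or 40. With transgenic replicates 26 and 27 left out together, 9 were higher and 9 lower.

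Transgenic against parabiotic CD11c cells gave 6 higher members (Sema4c, Sema4g, Sema6c, Plxna4, Efnb2 and Ephb3) and 1 lower (Plxna1), with 36 not called. This comparison shares its libraries with the others. The background was 10.1% of all genes (7.63% higher and 2.42% lower), against 16.3% of the tested members, whose median log2 fold change was 0.09 against 0.04 over all genes. Without any 1 of the 3 parabiotic libraries no member was called lower, and without transgenic replicates 26 and 27 together 13 were higher and 3 lower.

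The promoters of the members with the largest called change each way in parabiotic cells are printed here, because these genes moved furthest and have a single RefSeq start. Each sequence is the 250 bases before that start on the strand of the gene (RefSeq, GRCm38.p6), with CG dinucleotides in capitals. Sema4f (chr6:82939770-82940019, minus strand) and Sema7a (chr9:57939862-57940111, plus strand) rose, and Sema4g (chr19:44989094-44989343, plus strand) and Ephb3 (chr16:21204545-21204794, plus strand) fell.
Sema4f promoter: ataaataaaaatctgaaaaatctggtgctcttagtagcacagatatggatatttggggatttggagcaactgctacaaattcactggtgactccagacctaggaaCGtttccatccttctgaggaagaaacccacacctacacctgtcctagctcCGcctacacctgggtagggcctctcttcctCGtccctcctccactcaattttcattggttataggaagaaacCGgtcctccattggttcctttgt
Sema7a promoter: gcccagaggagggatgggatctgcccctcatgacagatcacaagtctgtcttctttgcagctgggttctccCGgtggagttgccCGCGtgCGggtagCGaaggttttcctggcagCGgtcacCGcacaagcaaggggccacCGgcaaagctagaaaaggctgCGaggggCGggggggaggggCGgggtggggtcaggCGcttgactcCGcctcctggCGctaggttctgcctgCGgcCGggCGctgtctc
Sema4g promoter: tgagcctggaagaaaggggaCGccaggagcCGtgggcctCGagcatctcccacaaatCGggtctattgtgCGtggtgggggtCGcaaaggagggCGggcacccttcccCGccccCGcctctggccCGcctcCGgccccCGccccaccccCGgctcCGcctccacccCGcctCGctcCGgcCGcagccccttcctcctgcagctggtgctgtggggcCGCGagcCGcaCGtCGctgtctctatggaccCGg
Ephb3 promoter: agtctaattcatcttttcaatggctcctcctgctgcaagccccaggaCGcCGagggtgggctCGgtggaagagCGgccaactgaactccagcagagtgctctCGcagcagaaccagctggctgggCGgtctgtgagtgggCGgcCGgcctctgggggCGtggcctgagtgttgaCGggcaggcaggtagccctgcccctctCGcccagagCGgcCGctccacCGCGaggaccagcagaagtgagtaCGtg

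The Sema4f promoter held 4 CG dinucleotides and 46.0% GC, the lowest of these promoters. Sema7a held 17 CG dinucleotides and 66.4% GC, Sema4g 24 and 73.2%, and Ephb3 16 and 65.6%. Over the 58 members found in the promoter table (74 promoters) the median was 15 CG dinucleotides, against 6 over all 32851 promoters. The median was 17.5 for 8 of the 9 higher members (range 4 to 26) and 15.5 for 12 of the 13 lower ones (range 3 to 27), counting for each gene its start with most CG. A search of both strands for motif letters of factors known in myeloid cells found those of PU.1 (GAGGAAGT) in 0 of the 74 member promoters and in 2.44% of all promoters. RUNX (TGTGGT) was in 10 member promoters and 14.1% of all, AP-1 (TGANTCA) in 3 and 6.75%, and the E-box CACGTG in 3 and 6.02%. None of these 4 motifs is in the 4 promoters printed. Plxna1 and Plxna4 are not in the promoter table.

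Among the ligands, class 4 semaphorins carried most of the semaphorin RNA in each library, and single members of the class went opposite ways. Sema4d (ENSMUSG00000021451, chr13:51685529-51793747), known as CD100 and shed from immune cells, held 765, 809.8 and 773 CPM in microglia replicates 39, 40 and 41. It held 667, 518 and 667 CPM in parabiotic replicates 3, 11 and 15, and 790, 829.5, 389 and 187 CPM in transgenic replicates 23, 24, 26 and 27. Parabiotic libraries lay below all microglia libraries, and transgenic replicates 26 and 27 lay below both groups, but no comparison passed the test (adjusted p = 0.569, 0.393 and 0.855). On the CPM per kb scale Sema4d made up 77.5% to 81.1% of the semaphorin sum in microglia, 70.4% to 75.1% in parabiotic cells and 56.2% to 78.9% in transgenic cells.

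Sema4a (ENSMUSG00000028064, chr3:88435959-88461182), a membrane ligand of dendritic cells that costimulates T cells, held 14.6, 16.6 and 13 CPM in microglia and 109, 80.9 and 99.9 CPM in parabiotic cells. Its levels in transgenic cells were 51.4, 61.5, 16.1 and 46.2 CPM. Parabiotic libraries all lay above the others, while transgenic replicate 26 lay within the range of microglia. Sema4a rose in parabiotic cells by 2.72 ± 0.39 on the log2 scale (SE, adjusted p = 0.000346) and in transgenic cells by 1.57 ± 0.36 (adjusted p = 0.0171). The transgenic call was lost without microglia replicate 39, 40 or 41 (adjusted p = 0.0838, 0.0638 and 0.0643) and with the minimum fold of 1.5 (0.0671). Transgenic cells differed from parabiotic cells by -1.14 ± 0.34 (adjusted p = 0.0586), which was called without transgenic replicate 24 or 26 (adjusted p = 0.0404 and 0.00662). DESeq2 (adjusted p = 0.0118) and limma-voom (0.0454) also called this difference of Sema4a. Its share of the semaphorin sum per kb was 1.88% to 2.36% in microglia and 15.7% to 16.4% in parabiotic cells.

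Sema4f (ENSMUSG00000000627, chr6:82911885-82939769), whose promoter is shown above, had 2 counts in all in microglia, giving 0, 0.0614 and 0 CPM. Parabiotic libraries held 3.25, 4.23 and 2.85 CPM and transgenic libraries 3.1, 2.08, 0.506 and 2.14 CPM. The groups did not overlap with microglia, and transgenic replicate 26 was the lowest of the CD11c libraries. The ratio of pooled CPM to microglia was 171 in parabiotic cells, with a 95% exact counting interval of 47.0 to 1418. For transgenic cells it was 96.0 (26.3 to 796), and both differences were called (adjusted p = 0.000185 and 0.00151). These intervals cover counting error only.

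Sema4c and Sema4g, both ligands that can bind plexin-B2, were lower in parabiotic cells. Sema4c (ENSMUSG00000026121, chr1:36548639-36558349) held 90.8, 68.1 and 86.2 CPM in microglia, 12.6, 13.3 and 16.1 CPM in parabiotic cells and 41.8, 49.7, 46.9 and 14.4 CPM in transgenic cells. Transgenic replicate 27 lay within the parabiotic range, while the other transgenic libraries lay between the groups. Sema4c fell by 2.54 ± 0.38 on the log2 scale in parabiotic cells (adjusted p = 0.000429), and the difference between transgenic cells and microglia was -1.10 ± 0.33 (adjusted p = 0.0508, and 0.0381, 0.048 and 0.00701 without transgenic replicates 24, 26 and 27). The difference from microglia was also called with RLE scaling (adjusted p = 0.0458), upper quartile scaling (0.0487), DESeq2 (0.0111) and limma-voom (0.0418). Fits with the stricter filter (0.0479) and with dispersion without robust (0.0494) called it too. Sema4c was higher in transgenic than in parabiotic cells by 1.45 ± 0.35 (adjusted p = 0.0238). That call was lost without any 1 of parabiotic replicates 3, 11 and 15 and transgenic replicates 24 and 26 (adjusted p = 0.108, 0.0971, 0.0695, 0.0523 and 0.0561). It was also lost with limma-voom (adjusted p = 0.0714), a fit of the CD11c groups alone (0.0684) and the minimum fold of 1.5 (0.0873). With transgenic replicates 26 and 27 left out together the difference from microglia was -0.84 (adjusted p = 0.00535).

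Sema4g (ENSMUSG00000025207, chr19:44989101-45003397) was low throughout, at 4.92, 6.82 and 4.68 CPM in microglia and 0.144, 0.152 and 0.0911 CPM in parabiotic cells, where it had 13 counts in all. Transgenic libraries spread from the parabiotic level to near that of microglia, at 2.51, 3.15, 0.987 and 0.0731 CPM. The fall in parabiotic cells was -5.37 ± 1.02 (log2, adjusted p = 0.00197). The difference of transgenic from parabiotic cells was 3.66 ± 0.96 (adjusted p = 0.0336), and it lost the call without any 1 library except transgenic replicates 26 and 27 (adjusted p from 0.0544 to 0.13). Without those replicates together it was 4.40 (adjusted p = 2.76e-05). The call was also lost with limma-voom (2.62, adjusted p = 0.333) and without the low-count filter (0.0509). A fit of the CD11c groups alone (0.0904) and the minimum fold of 1.5 (0.0621) lost it too. Sema4b, also of class 4, held 1.32 to 3.71 CPM in all libraries and was not called.

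**Figure D2:**
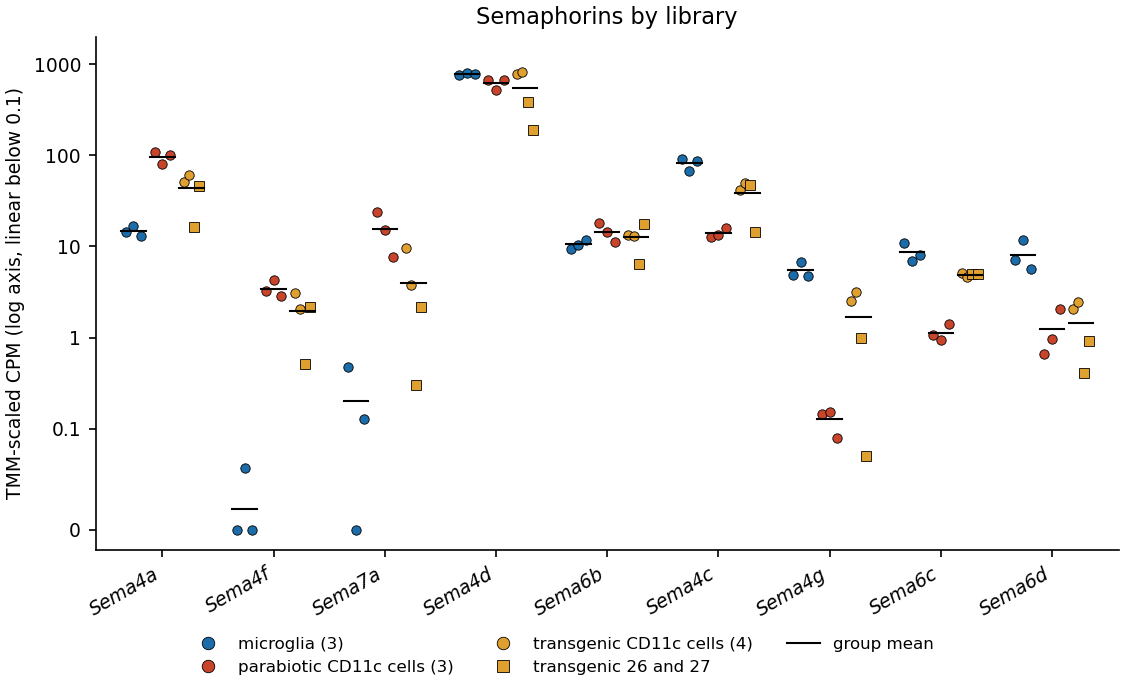
TMM-scaled CPM (log scale, linear below 0.1) of 9 semaphorins in microglia, parabiotic and transgenic libraries. Circles are libraries, squares are transgenic replicates 26 and 27, and black bars are group means. Sema4f and Sema7a are near 0 in microglia, while Sema4c, Sema4g, Sema6c and Sema6d are highest there.

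Class 6 semaphorins, transmembrane ligands of plexin-A receptors, were lower in parabiotic cells where they were called. Sema6c (ENSMUSG00000038777, chr3:95160457-95174024) held 11, 6.91 and 7.95 CPM in microglia, 1.06, 0.943 and 1.4 CPM in parabiotic cells and 5.05, 4.61, 5.01 and 4.92 CPM in transgenic cells. The 3 groups did not overlap, and the transgenic libraries were close to one another. Sema6c fell by 2.92 ± 0.28 in parabiotic cells (log2, adjusted p = 2.35e-05) and was higher in transgenic than in parabiotic cells by 2.11 ± 0.26 (adjusted p = 0.000586). The fall of -0.82 ± 0.24 in transgenic cells against microglia was near the threshold (adjusted p = 0.0442). It was not called without any 1 of the 10 libraries (adjusted p from 0.0517 to 0.203). The call was also lost without the low-count filter (0.0819), with only transgenic cells and microglia in the fit (0.0695) and with the minimum fold of 1.5 (0.36).

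Sema6d (ENSMUSG00000027200, chr2:124089969-124667770), a ligand of plexin-A1, held 7.09, 11.7 and 5.6 CPM in microglia, 0.66, 0.973 and 2.06 CPM in parabiotic cells and 2.04, 2.45, 0.405 and 0.925 CPM in transgenic cells. All CD11c libraries lay below all microglia libraries, and the parabiotic and transgenic ranges overlapped. It fell by 2.72 ± 0.65 in parabiotic cells (adjusted p = 0.00727) and by 2.48 ± 0.57 in transgenic cells (adjusted p = 0.0176). The transgenic call was lost without microglia replicate 39 or 40 (adjusted p = 0.0557 and 0.0897), and with a term for the library numbers (-1.85, adjusted p = 0.0663). Sema6b ranged from 6.48 to 18.2 CPM over all libraries, and Sema6a held no more than 0.491 CPM. Neither was called.

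Sema7a (ENSMUSG00000038264, chr9:57940112-57962865), a membrane-anchored ligand of plexin-C1 and integrins, held 0.48, 0 and 0.127 CPM in microglia and 23.9, 15.2 and 7.71 CPM in parabiotic cells. Transgenic libraries held 9.65, 3.77, 0.304 and 2.14 CPM, of which replicate 26 lay within the range of microglia. Sema7a rose by 6.21 ± 1.24 in parabiotic cells (log2, adjusted p = 0.00265). The rise in transgenic cells was 4.23 ± 1.15 (adjusted p = 0.0344), and with replicates 26 and 27 left out 4.98 (adjusted p = 0.00337). This rise was not called without microglia replicate 39, 40 or 41 (adjusted p = 0.0637, 0.131 and 0.104). Nor was it without parabiotic replicate 3 or 11 (0.0502 and 0.0557) or transgenic replicate 23 (0.053). The call was also lost with limma-voom (adjusted p = 0.164), without the low-count filter (0.124), with only transgenic cells and microglia in the fit (0.0748) and with the minimum fold of 1.5 (0.0703).

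Of the 7 class 3 semaphorins, the secreted ligands, 3 were tested and none was called in any comparison. Sema3d varied most, at 2.12, 1.34 and 0.0911 CPM in parabiotic cells, 0.251, 0.0539, 0 and 2.34 CPM in transgenic cells and no more than 0.113 CPM in microglia (adjusted p = 0.0866 in parabiotic cells against microglia). The summed level of class 3 stayed between 0.823 and 3.80 CPM in every library, and the 2 members of class 5 were not tested and summed to at most 0.123 CPM.

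Of the receptors of these ligands, 8 plexins were tested, of which 4 rose and 3 fell in parabiotic cells against microglia. In transgenic cells 3 rose and 2 fell. The called share of tested plexins was 87.5% in parabiotic and 62.5% in transgenic cells, against 35.3% and 13.7% of all genes. Plxnb2 (ENSMUSG00000036606, chr15:89155549-89180788), the receptor of class 4 semaphorins, had the highest level per kb of all members in microglia, at 139 CPM per kb. It held 1089, 1046 and 1086 CPM in microglia, 346, 361 and 369.6 CPM in parabiotic cells and 804, 762, 397 and 366 CPM in transgenic cells. Parabiotic libraries lay below all microglia libraries, and of the transgenic libraries replicates 23 and 24 lay between the groups while replicate 27 lay within the parabiotic range and replicate 26 just above it. Plxnb2 fell by 1.58 ± 0.29 in parabiotic cells (log2, adjusted p = 0.00157) and by 0.88 ± 0.26 in transgenic cells (adjusted p = 0.0473). The transgenic call was lost without microglia replicate 39, 40 or 41 (adjusted p = 0.146, 0.135 and 0.105), parabiotic replicate 3, 11 or 15 (0.0727, 0.0749 and 0.0746) or transgenic replicate 26 or 27 (0.067 and 0.0671). With both of the last left out it was -0.46 (adjusted p = 0.0137). The call was also lost with only transgenic cells and microglia in the fit (adjusted p = 0.103) and with the minimum fold of 1.5 (0.314). The difference of transgenic from parabiotic cells was not called (0.70 ± 0.27, adjusted p = 0.134). It was called without transgenic replicate 27 (0.87, adjusted p = 0.0255) and with replicates 26 and 27 left out (1.11, adjusted p = 6.15e-05). A term for the library numbers, which sets only these replicates apart, gave 1.13 (adjusted p = 0.000333) and is not a separate check.

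Plxna4 (ENSMUSG00000029765, chr6:32144268-32588192), a partner of neuropilins in class 3 semaphorin signalling, held 73.2, 65.8 and 45.8 CPM in microglia, 2.5, 2.37 and 4.4 CPM in parabiotic cells and 23.7, 26.3, 16 and 13.4 CPM in transgenic cells. The 3 groups did not overlap, with transgenic cells between the others. Plxna4 fell by 4.32 ± 0.36 in parabiotic cells (log2, adjusted p = 1.16e-05) and by 1.63 ± 0.29 in transgenic cells (adjusted p = 0.00478). It was higher in transgenic than in parabiotic cells by 2.68 ± 0.33 (adjusted p = 0.000501). Neurons also express Plxna4, and 10 neuron markers, of which 4 had a count in every library and none was at 0 in all, summed to 7.98 to 11.5 CPM in microglia, 0.547 to 1.67 CPM in parabiotic cells and 2.32 to 4.35 CPM in transgenic cells. The 6 neuron markers tested all fell in parabiotic cells, with a median log2 fold change of -4.58, and their part in the difference of Plxna4 was not tested. Plxnb3 (ENSMUSG00000031385) fell in parabiotic cells, from 15.6, 17 and 12.5 CPM in microglia to 4.8, 3.38 and 5.43 CPM (log2 -1.73 ± 0.40, adjusted p = 0.00587). Its transgenic libraries, at 8.01, 8.79, 7.59 and 2.61 CPM, all lay below microglia but missed the threshold (adjusted p = 0.0527, and 0.0423 and 0.0207 without transgenic replicates 24 and 27). Plxnb3 was also called there with RLE scaling (adjusted p = 0.0476), upper quartile scaling (0.0489), DESeq2 (0.0103) and limma-voom (0.0346). Fits without the low-count filter (0.0411) and with the stricter filter (0.0478) called it too. Against parabiotic cells Plxnb3 was called without replicate 27 (0.85, adjusted p = 0.021).

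Plxna1 (ENSMUSG00000030084, chr6:89316314-89362620), a receptor of class 6 semaphorins known in dendritic cells, held 3.87, 8.69 and 9.05 CPM in microglia, 99.6, 90.6 and 89 CPM in parabiotic cells and 46.8, 47.4, 23.4 and 42.8 CPM in transgenic cells. The 3 groups did not overlap. Plxna1 rose by 3.69 ± 0.36 in parabiotic cells (log2, adjusted p = 2.51e-05) and by 2.48 ± 0.33 in transgenic cells (adjusted p = 0.000914). The difference of -1.21 ± 0.30 between transgenic and parabiotic cells was called (adjusted p = 0.024). It was not called without parabiotic replicate 3, 11 or 15 (adjusted p = 0.0919, 0.0721 and 0.0688). Nor was it with a term for the library numbers (-0.98, adjusted p = 0.0954) or the minimum fold of 1.5 (0.117).

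Plxnd1 (ENSMUSG00000030123, chr6:115954811-115995005), a receptor of Sema3e and Sema4a, held 6.04, 9.39 and 10.3 CPM in microglia, 138, 137 and 138 CPM in parabiotic cells and 117, 109.5, 25.9 and 66.6 CPM in transgenic cells. The parabiotic libraries were nearly equal, and transgenic libraries lay between the other groups, lowest in replicate 26. Plxnd1 rose by 4.01 ± 0.49 in parabiotic cells (adjusted p = 0.000109) and by 3.22 ± 0.46 in transgenic cells (adjusted p = 0.00131). Plxnc1 (ENSMUSG00000074785, chr10:94790866-94944835), the receptor of Sema7a, held 201, 189.6 and 261 CPM in parabiotic cells. Its microglia libraries differed among themselves, at 6.72, 45.1 and 67.1 CPM, and transgenic libraries at 206, 185, 108 and 62.6 CPM overlapped them. It rose in parabiotic cells by 2.45 ± 0.67 (adjusted p = 0.0146, and 0.0503 without microglia replicate 40 and 0.0822 without the low-count filter). In transgenic cells it was not called (1.83 ± 0.63, adjusted p = 0.0728). It was called there with DESeq2 (1.78, adjusted p = 0.0129) and limma-voom (2.23, adjusted p = 0.0464).

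Plxna2 (ENSMUSG00000026640) rose from 0.678, 1.72 and 1.74 CPM in microglia to 5.23, 9.25 and 7.35 CPM in parabiotic cells (log2 2.40 ± 0.43, adjusted p = 0.00147). Transgenic cells held 5.67, 5.34, 4.07 and 2.58 CPM, all above microglia (1.68 ± 0.41, adjusted p = 0.0221, and 0.0922 and 0.0686 without microglia replicates 39 and 40). With the minimum fold of 1.5 this call was lost too (adjusted p = 0.0753). Plxna3 held 3.05, 5.04 and 4.46 CPM in microglia and 1.09, 0.882 and 1.37 CPM in parabiotic cells, which did not overlap but were not called (adjusted p = 0.0583). Plxnb1 was removed by the filter, at no more than 0.768 CPM.

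**Figure D3:**
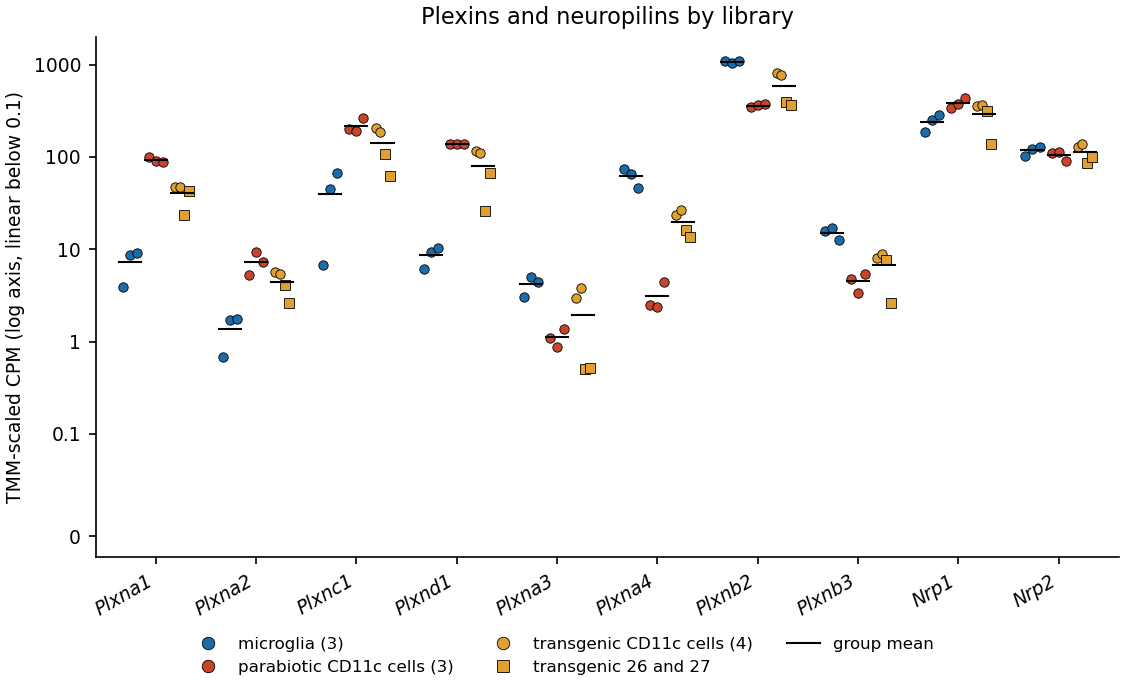
TMM-scaled CPM (log scale, linear below 0.1) of the plexins and neuropilins in each library, by group. Circles are libraries, squares are transgenic replicates 26 and 27, and black bars are group means. Plxnb2 is highest in microglia at 1046 to 1089 CPM, and Plxna1 and Plxnd1 are highest in parabiotic cells.

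For 5 of the 9 plexins, the share in the plexin RNA had a separate range in each source. Per kb, Plxnb2 made up 89.6% to 93.3% of the summed plexin level in microglia, 43.7% to 46.9% in parabiotic cells and 67.4% to 70.4% in transgenic cells. Plxnc1 took 0.533% to 5.12% in microglia, 22.8% to 28.5% in parabiotic cells and 10.7% to 17.6% in transgenic cells. Plxnd1 took under 1% in every microglia library, 17.3% to 18.9% in parabiotic cells and 4.85% to 13.0% in transgenic cells. Plxna1 took 0.283% to 0.637%, 8.97% to 11.0% and 3.37% to 6.72% in the same order. Plxna4 went from 2.07% to 3.43% in microglia to 0.169% to 0.285% in parabiotic cells, with 1.09% to 1.56% in transgenic cells. For these 5 receptors, the shares in the 3 groups did not overlap, while those of Plxna2, Plxna3, Plxnb1 and Plxnb3 overlapped between some groups. Because the shares add up to the same whole, they are not independent.

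**Figure D4:**
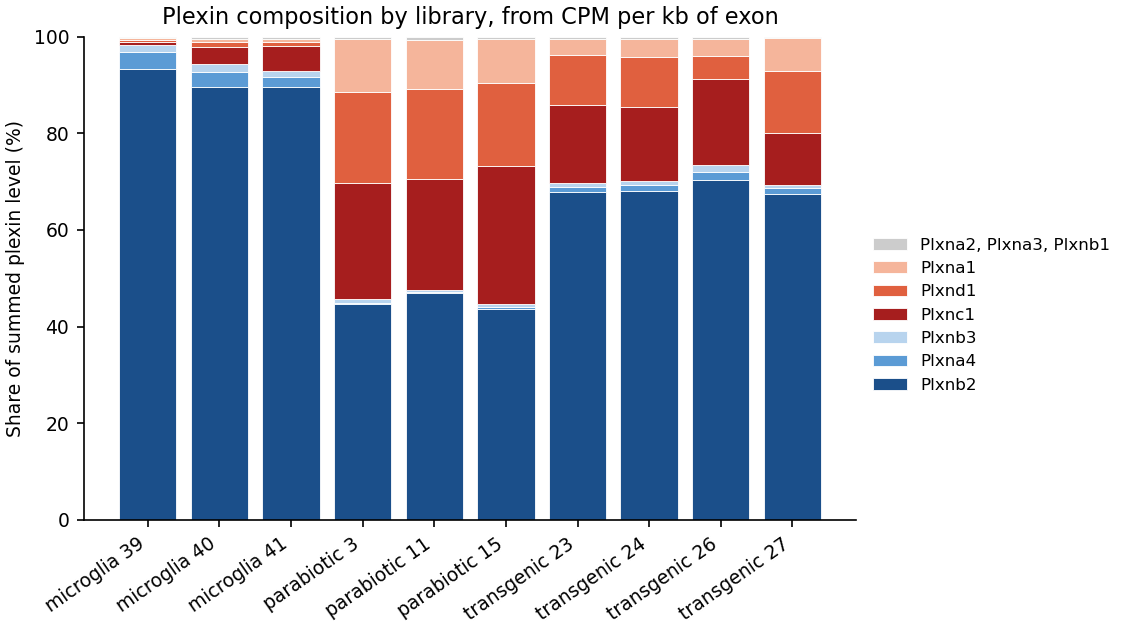
Share of each plexin in the summed plexin CPM per kb, in percent, stacked for each of the 10 libraries. Plxnb2 fills 89.6% to 93.3% of the bar in microglia and 43.7% to 46.9% in parabiotic cells, where Plxnc1, Plxnd1 and Plxna1 fill most of the rest.

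The neuropilins, co-receptors of class 3 semaphorins, were abundant in all groups and did not pass the test. Nrp1 (ENSMUSG00000025810), which also binds VEGF, held 187, 251 and 282 CPM in microglia, 336, 372 and 438 CPM in parabiotic cells and 356, 362, 310.1 and 137 CPM in transgenic cells. Parabiotic libraries lay above microglia (0.67 ± 0.31, adjusted p = 0.121), and transgenic replicate 27 was the lowest of all. This difference of Nrp1 was called without transgenic replicate 27 (0.68, adjusted p = 0.00988), without replicates 26 and 27 (0.68, adjusted p = 0.0042) and with only these 2 groups in the fit (0.67, adjusted p = 0.00814). Nrp2 ranged from 86.9 to 139 CPM over all libraries, with group means of 118 ± 12.8, 104 ± 12.2 and 113 ± 23.8 CPM (SD, n = 3, 3 and 4).

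Of the 3 ephrin-B ligands, Efnb1 and Efnb2 fell in parabiotic cells and Efnb1 in transgenic cells, and the ephrin-A ligands were at low levels. Efnb1 (ENSMUSG00000031217, chrX:99136130-99148991), a transmembrane ligand of EphB receptors, held 20.6, 22.2 and 17.5 CPM in microglia, 3.85, 3.77 and 5.59 CPM in parabiotic cells and 9.54, 10.3, 7.06 and 2.44 CPM in transgenic cells. All CD11c libraries lay below all microglia libraries, lowest in transgenic replicate 27. Efnb1 fell by 2.19 ± 0.44 in parabiotic cells (adjusted p = 0.00264) and by 1.45 ± 0.39 in transgenic cells (adjusted p = 0.0317). The transgenic call was lost without microglia replicate 39, 40 or 41 (adjusted p = 0.11, 0.122 and 0.0631) and without transgenic replicate 26 (0.0517). It was also lost with a term for the library numbers (-1.02, adjusted p = 0.154). A fit of transgenic cells and microglia alone (0.066) and the minimum fold of 1.5 (0.12) lost it too. Against parabiotic cells Efnb1 was not called (0.74 ± 0.40, adjusted p = 0.305), but it was without transgenic replicate 27 (1.03, adjusted p = 0.00955).

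Efnb2 (ENSMUSG00000001300, chr8:8617434-8661242) held 12.3, 12.2 and 6.74 CPM in microglia, 0.919, 1.06 and 0.577 CPM in parabiotic cells and 5.08, 5.28, 1.39 and 6.5 CPM in transgenic cells. The 3 groups did not overlap. It fell by 3.60 ± 0.54 in parabiotic cells (adjusted p = 0.000431). The difference of transgenic cells from microglia was not called (-1.19 ± 0.44, adjusted p = 0.0921, and 0.0352 with DESeq2). Transgenic cells were above parabiotic cells by 2.41 ± 0.50 (adjusted p = 0.011, and 0.0594 without parabiotic replicate 15 and 0.0664 with limma-voom). The remaining B ligand, Efnb3, held no more than 0.706 CPM and was not called, and the 3 ephrin-A ligands tested (Efna1, Efna2 and Efna5) were not called. Endothelial cells also express Efnb2. The 10 endothelial markers, of which 5 had a count in every library, summed to 23.9 to 25.7 CPM in microglia. They summed to 14.4 to 23.2 CPM in parabiotic cells and 17.7 to 22.35 CPM in transgenic cells. In parabiotic cells against microglia, 1 of them was called lower and 9 were not called, with a median log2 fold change of -0.16. Their part in the difference of Efnb2 was not tested.

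Of the Eph receptors, Epha2 was the main one in all groups and was lower in CD11c cells. Epha2 (ENSMUSG00000006445, chr4:141301240-141329384) held 92.7, 89.7 and 76.9 CPM in microglia, 24.2, 14.8 and 18.3 CPM in parabiotic cells and 31.3, 30.1, 20.2 and 12.9 CPM in transgenic cells. All CD11c libraries lay below all microglia libraries, and the CD11c groups overlapped. It fell by 2.18 ± 0.32 in parabiotic cells (adjusted p = 0.000353) and by 1.87 ± 0.28 in transgenic cells (adjusted p = 0.00194), and kept both calls under every alternative run. Per kb, Epha2 made up 81.9% to 92.8% of the summed Eph receptor level in every library.

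Ephb3 (ENSMUSG00000005958, chr16:21204755-21223305), whose promoter is shown above, held 12.1, 11.2 and 8.14 CPM in microglia and 0.172, 0.335 and 0.273 CPM in parabiotic cells. Transgenic libraries held 4.16, 4.5, 2.73 and 1.53 CPM and lay between the other groups, with no overlap. Ephb3 fell by 5.32 ± 0.49 in parabiotic cells (log2, adjusted p = 1.87e-05). It fell by 1.69 ± 0.36 in transgenic cells (adjusted p = 0.0118, and 0.0632 and 0.0569 without microglia replicates 39 and 40) and was above parabiotic cells by 3.62 ± 0.45 (adjusted p = 0.000596). Its paralogue Ephb2 (ENSMUSG00000028664, chr4:136647539-136835988) went the other way at low level, from 0.0283, 0.0614 and 0.095 CPM in microglia to 1.47, 1.64 and 1.67 CPM in parabiotic cells (4.63 ± 0.92, adjusted p = 0.00253). In transgenic cells Ephb2 held 0.307, 0.674, 0.0253 and 0.585 CPM, of which replicate 26, with 1 count, lay below every microglia library. It was not called there (adjusted p = 0.0673, and 0.00741 without replicate 26 and 0.0242 with DESeq2). Of the other 9 Eph receptors, 2 were tested (Epha1 and Ephb6) and not called, and none passed 1 CPM in any library. Epha1 shares 236 exonic bases with Zyx, a gene on the opposite strand with 92531 counts in all against 163. The library kit does not mark strand. Zyx was higher in parabiotic cells than in microglia (1.11 ± 0.23, adjusted p = 0.0031), and its part in the Epha1 counts was not tested.

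**Figure D5:**
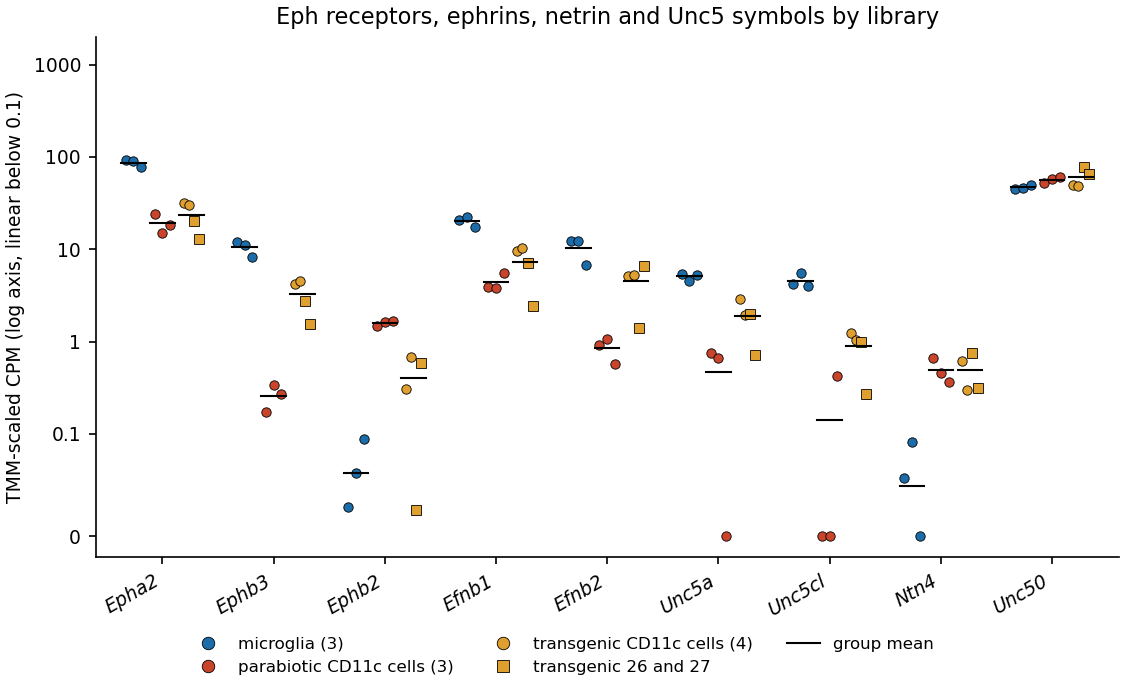
TMM-scaled CPM (log scale, linear below 0.1) of 3 Eph receptors, 2 ephrins, Ntn4 and the Unc5 and Unc50 symbols in each library, by group. Circles are libraries, squares are transgenic replicates 26 and 27, and black bars are group means. Epha2 is highest in microglia at 76.9 to 92.7 CPM, and Ephb3 is under 0.34 CPM in each parabiotic library.

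Netrins, Slits and their receptors were at low levels in all 10 libraries. Ntn4 (ENSMUSG00000020019), a secreted netrin of basement membranes, held 0.0565, 0.0921 and 0 CPM in microglia, 0.66, 0.456 and 0.364 CPM in parabiotic cells and 0.614, 0.297, 0.759 and 0.317 CPM in transgenic cells. Both CD11c groups lay above microglia, where it had 5 counts in all, and rose by 3.22 ± 0.80 and 3.22 ± 0.77 on the log2 scale (adjusted p = 0.00915 and 0.0208). Unc5a (ENSMUSG00000025876, chr13:54949411-55006018), a netrin receptor, fell from 5.42, 4.51 and 5.29 CPM in microglia to 0.747, 0.669 and 0 CPM in parabiotic cells (-3.41 ± 0.84, adjusted p = 0.00885). Transgenic libraries held 2.87, 1.94, 1.97 and 0.706 CPM, below microglia but not called (adjusted p = 0.177). Unc5a shares 34 exonic bases with Hk3, a gene on the opposite strand with 46635 counts in all against 836, and the library kit does not mark strand. Hk3 itself was not called in parabiotic cells (-0.10 ± 0.21, adjusted p = 0.731), and the part of its reads in the Unc5a counts was not tested.

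Slit1 was the only Slit tested (0.19 to 2.04 CPM) and Robo4 the only Robo receptor, and neither was called. Slit2 was removed by the filter with 1.07 CPM in parabiotic replicate 11, the highest level of an untested member. Slit3 had 2 counts in all. Of the symbol matches, Unc5cl fell from 4.24, 5.5 and 3.99 CPM in microglia to 0, 0 and 0.425 CPM in parabiotic cells (-4.99 ± 1.05, adjusted p = 0.00363). Its transgenic libraries, at 1.23, 1.05, 0.987 and 0.268 CPM, lay below microglia and were not called (adjusted p = 0.0679, and 0.0171 without parabiotic replicate 15). Unc5cl was also called there with DESeq2 (adjusted p = 0.0138), limma-voom (0.0123) and only transgenic cells and microglia in the fit (0.0196). Unc50 held 44.9 to 77.7 CPM over all libraries and was not called.

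Outside these families, a list of 27 ligands, receptors and co-receptors of the same pathways had 18 genes tested, of which 7 rose and 3 fell in parabiotic cells against microglia, or 55.6% against 35.3% of all genes. Their median log2 fold change was 0.99 against -0.02 over all genes tested. Gpc1, a heparan sulphate proteoglycan that binds Slits, rose from 1.82 ± 0.34 to 71.6 ± 22.9 CPM (SD, n = 3 each, log2 5.29, adjusted p = 2.03e-05). L1cam, an adhesion molecule, rose by 3.57 and Flrt3, a ligand of Unc5 receptors, by 6.34, while Rgmb fell by 2.01, the receptor Neo1 (neogenin) by 2.41 and Cntn1 by 2.80. In transgenic cells 4 rose (Gpc1, Flrt3, L1cam and Havcr1) and 1 fell (Rgmb), or 27.8% against 13.7% of all genes, with a median of 0.68 against 0.02. Against parabiotic cells, Neo1 and Rgmb were higher in transgenic cells and Gpc1 lower, or 16.7% against 10.1%. Dcc was removed by the filter.

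Another list held 63 intracellular effectors of guidance receptors, of which 59 were tested. In parabiotic cells 8 rose and 17 fell, which is 42.4% against 35.3% of all genes, with a median log2 fold change of -0.33 against -0.02. Vav3, an exchange factor downstream of Eph receptors, rose from 6.80 ± 2.87 to 82.6 ± 10.2 CPM (log2 3.60, adjusted p = 2.33e-05), the adaptor Nck2 rose by 5.67 and the kinase Fyn by 1.47. The kinase Fer fell (adjusted p = 3.57e-05), as did Mras, a small GTPase, by 3.12 and Arhgef12, an exchange factor that binds plexin-B receptors, by 1.89. In transgenic cells 5 rose (Vav3, Nck2 and Fyn among them) and 4 fell, among them Mras, Arhgef12 and Srgap2, or 15.3% against 13.7% of all genes. Transgenic against parabiotic cells gave 7 higher, with Fer, Mras and Farp1 among them, and 1 lower, Vav3, or 13.6% against 10.1% of all genes. These shares, called either way, were near those of all genes. In parabiotic cells, though, more effectors fell than rose, while 17.4% of all genes were called higher and 17.9% lower.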

How the data were processed

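RNA of sorted cells was sequenced in 10 libraries (3 of microglia, 3 of parabiotic and 4 of transgenic CD11c-eYFP+ cells). Per the labels' protocols, cDNA was made by template switching from an input of 1 or 5 ng, amplified for 9 or 11 cycles and passed to an unstranded library kit. STAR 2.5.3a, FastQC 0.11.5, the build GRCm38 and DESeq2 are named in the submitters' processing notes. The sources used here name no counting program, annotation or strand setting. The authors deposited whole-number counts per Ensembl gene, and 28492 of 28585 identifiers had a symbol in GENCODE M21 (GRCm38), which also gave exon lengths and overlaps. Because the kit marks no strand, reads of overlapping genes on opposite strands cannot be told apart.

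From these counts, genes were filtered with filterByExpr by group (15151 kept, 13434 removed), scaled with TMM and tested in 1 fit of all libraries with edgeR 4.0.16 under R 4.3.3 (robust quasi-likelihood F test). The adjusted p is that of Benjamini and Hochberg over all genes tested, called when under 0.05, and SE is the log2 fold change over the root of F. The biological coefficient of variation was 0.317, and libraries held 31534625 to 41730688 counts, so the spread between libraries limits the precision of abundant members and counting error that of members with a few counts in a group. Code was tested on simulated data. Values in every library, or a range for Sema6b, Nrp2 and Unc50, are given for 26 tested members. These had a mean of at least 5 CPM in a group, or of at least 1 CPM where called. Ntn4, Sema3d and Plxna3 lie outside that rule and were picked after their values were seen. From the other pathway lists, up to 3 genes each way with the lowest p were named, except that all 4 partners called higher in transgenic cells were. The members and lists were chosen with earlier results of these data known. Alternatives were RLE and upper quartile scaling, DESeq2 1.42.0, limma-voom (limma 3.58.1), no filter, a filter of 5 CPM in 3 or more libraries, a fit of the 2 groups alone, a term for the library numbers, dispersion without robust, a minimum fold of 1.5, each library left out, and transgenic replicates 26 and 27 left out, the last chosen after seeing the data.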

Additional observations from a re-analysis of the deposited data

How the results depend on the processing

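Over 21 alternatives, 1468 of 1623 results for single members kept their direction and side of the threshold, 83 lost a call, 58 gained one and 14 changed direction, none of them called. Left without 1 library each, members called in parabiotic cells against microglia ran from 8 to 10 higher and from 13 to 15 lower. In transgenic cells against microglia they ran from 3 to 8 higher and from 2 to 8 lower, lowest without microglia replicate 39 or 40. Transgenic against parabiotic cells ran from 4 to 9 higher (most without transgenic replicate 27) and from 0 to 3 lower (0 without parabiotic replicate 3, 11 or 15, and 3 without transgenic replicate 26). In parabiotic cells against microglia, the stricter filter left 6 higher and 10 lower of fewer members tested. In transgenic cells against microglia, the minimum fold of 1.5 gave 4 higher and 4 lower, DESeq2 12 lower and the library number term 4 lower. In transgenic against parabiotic cells, limma-voom gave 3 higher and 3 lower, DESeq2 3 lower, no filter 2 lower, the library number term and the minimum fold 0 lower each, and leaving out transgenic replicates 26 and 27 together 13 higher and 3 lower. In transgenic cells against microglia, the library number term turned Nrp2 to 0.17 and Sema4d to 0.049, and leaving out both replicates turned them to 0.17 and 0.044. Left without 1 library each, Nrp2 ran from -0.17 (without transgenic replicate 24) to 0.024 (without replicate 26). Against parabiotic cells, the library number term turned Unc50 to -0.20 and Sema4d to 0.39, and leaving out both replicates turned them to -0.22 and 0.38. The term and this omission both leave the transgenic mean to replicates 23 and 24, so they are not separate checks. Left without 1 transgenic library each, Unc50 ran from -0.11 (replicate 26) to 0.18 (replicate 24) and Sema4d from -0.44 (replicate 24) to 0.12 (replicate 27). Sema6d against parabiotic cells ran from -0.14 without transgenic replicate 24 to 0.825 without parabiotic replicate 15, and was also below 0 without parabiotic replicate 3. The cause was not tested. No paired analysis was possible because the groups share no replicate numbers. Members with fewer than 10 counts in a group, such as Sema4f, Ephb2 and Ntn4 in microglia, have sizes limited by depth.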
